A study of Hordeum vulgare with 24 samples.

Results

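Young barley spikes carrying a mutation in HvMADS1 were compared between Waddington stages W3.5 and W2.5 in plants grown warm, with days of 25 °C and nights of 20 °C. The comparison takes 6 of the 24 libraries of the study, 3 at W3.5 and 3 at W2.5, and was set by those labels and not by measured values. All 6 share the mutant genotype, the cultivar Golden Promise, the warm regime (HT) and a photoperiod of 16 h. The labels do not name the mutant allele, nor say whether the plants come from 1 line or several. Each library is a biological replicate made from the RNA of 15 to 20 pooled spikes, so variation between single spikes was not measured. For setting beside it, the study also holds mads1 spikes grown cool, with days of 15 °C and nights of 10 °C (LT), and wild-type (WT) spikes at both temperatures, at the same stages, with 3 libraries in each of the 8 groups.

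The Waddington scale grades the barley spike by the form of its apex: spikelets bear their first bract-like primordia at the early stage, and stamen primordia appear at the late one. MADS-box transcription factors act in combinations that set the identity of each floral organ. SEPALLATA factors, to which HvMADS1 belongs, join with APETALA1, APETALA3 and AGAMOUS types in such complexes, and in grasses some of them also act in spikelet and floral meristems. The names of genes below follow published barley usage; the files pair no name with an identifier, and the pairing was not checked by sequence.

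The 6 libraries held between 14739430 and 17990388 counted reads, and 17211 of 39734 identifiers were expressed highly enough to be tested. Levels are CPM, counts scaled to library size with TMM factors over these 6 libraries. At W3.5 the libraries were less alike than at W2.5. On a log2(CPM + 1) scale, Pearson's r across genes was 0.955 between W3.5 replicates 1 and 3, 0.979 between replicates 2 and 3 and 0.988 between replicates 1 and 2, against 0.989, 0.989 and 0.995 among the W2.5 libraries. Replicate 1 had a higher r with each W2.5 library, 0.967 to 0.975, than with W3.5 replicate 3. Replicate 2 lay between the other two W3.5 libraries in 10105 tested genes (58.7%), replicate 1 in 21.6% and replicate 3 in 19.7%. Replicate 3 therefore stood apart from replicate 1 most, with replicate 2 in between, and leaving out replicate 3 lowered the common dispersion to 0.0134, against 0.0343 with all 6 libraries.

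The W3.5 libraries also differed by gene length. The mean gene length weighted by counts was 1829, 1745 and 1678 bp in W3.5 replicates 1, 2 and 3, against 1727, 1717 and 1720 bp in the W2.5 libraries. In the longest quintile of the tested genes, 2326 bp and more, the median difference from the W2.5 mean was 0.20, 0.04 and −0.11 on the log2(CPM + 1) scale in W3.5 replicates 1, 2 and 3. In the shortest quintile the same medians were −0.13, −0.03 and 0.05. Replicates 1 and 3 thus lay on opposite sides of the W2.5 libraries at both ends of the length range. The count of called genes and the fits of the named genes were repeated with a correction for length. Beyond that, the part of length in single results was not tested.

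A change was called at an edgeR quasi-likelihood adjusted p under 0.05 over all tested genes, and 3512 genes were called, 20.4% of those tested. Of these, 1793 were higher at W3.5 (10.4%) and 1719 lower (9.99%). With the length correction, which was added after the data were seen, the split was 1699 higher and 2451 lower. In all 3512 called genes each W3.5 library lay on the same side of all 3 W2.5 libraries, a separation that 7025 tested genes (40.8%) showed with or without a call, 20.1% upward and 20.7% downward. RNA was taken from whole spikes, so for every gene below fewer cells of a type and less RNA per cell cannot be told apart.

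The changes that held strongly in all 3 W3.5 libraries were fewer. Each W3.5 library was at least 2-fold from the W2.5 mean in 519 called genes (3.02% of those tested), 352 of them higher and 167 lower. The fitted change was under 1.5-fold in 1813 called genes (51.6%). A call survived the removal of any 1 of the 6 libraries in 995 genes (28.3%), 554 higher and 441 lower at W3.5. The count of calls fell to 1305 (7.48% of those tested) without W3.5 replicate 2, and to 1555, 1436 and 1095 without W2.5 replicate 1, 2 and 3. It was 4395 (25.1%) without W3.5 replicate 1 and 4579 (26.2%) without W3.5 replicate 3, a fit that also called 3271 (93.1%) of the 3512.

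**Figure D1:**
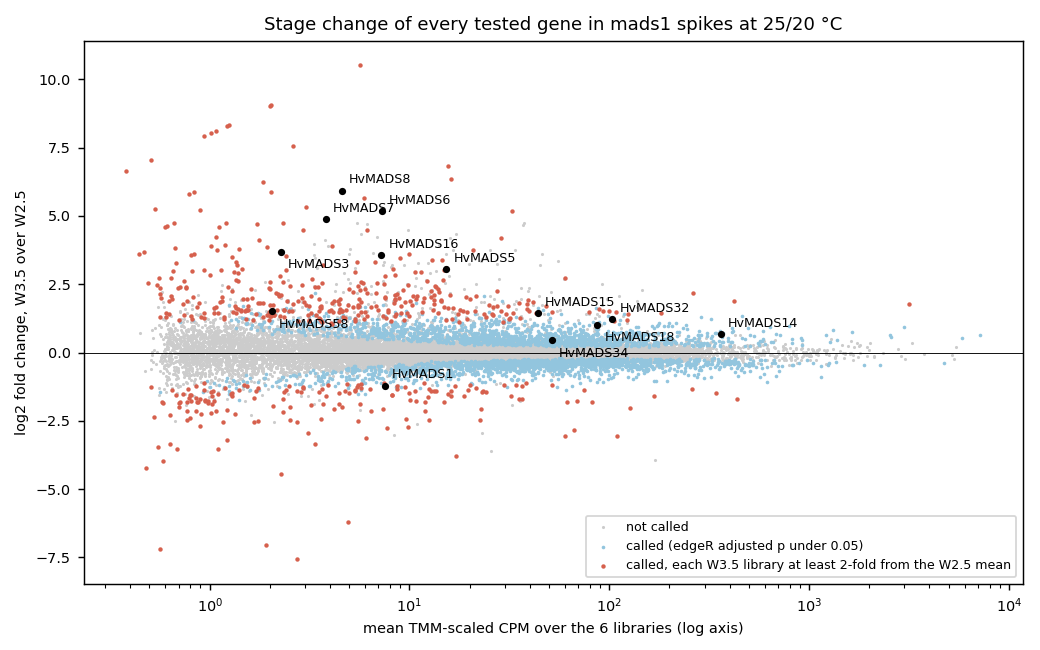
Each point is 1 of the 17211 tested genes: mean level over the 6 libraries in TMM-scaled CPM (log axis) against the log2 fold change of W3.5 over W2.5. Red points are the 519 called genes with every W3.5 library at least 2-fold from the W2.5 mean, blue points the other called genes, grey points genes not called, and black points the 13 MADS-box genes, of which HvMADS1 alone lies below 0.

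Replicate 3 was also looked at in genes called without it. Of the 4579 genes called from W3.5 replicates 1 and 2, replicate 3 lay beyond all W2.5 libraries in the same direction in 3952 (86.3%). It was within their range in 375 (8.19%) and beyond them in the opposite direction in 252 (5.5%), and it showed a median of 0.831 of the change of the other two. Replicate 1 gave like shares of the 4395 genes called without it, with 3798 (86.4%) in the same direction, 380 within the range and 217 opposite. All 1305 genes called without replicate 2 had replicate 2 beyond the W2.5 libraries in the same direction. By this measure replicates 1 and 3 departed at like shares. The W2.5 libraries are shared by these fits, so the shares describe the libraries and are no test.

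**Figure D2:**
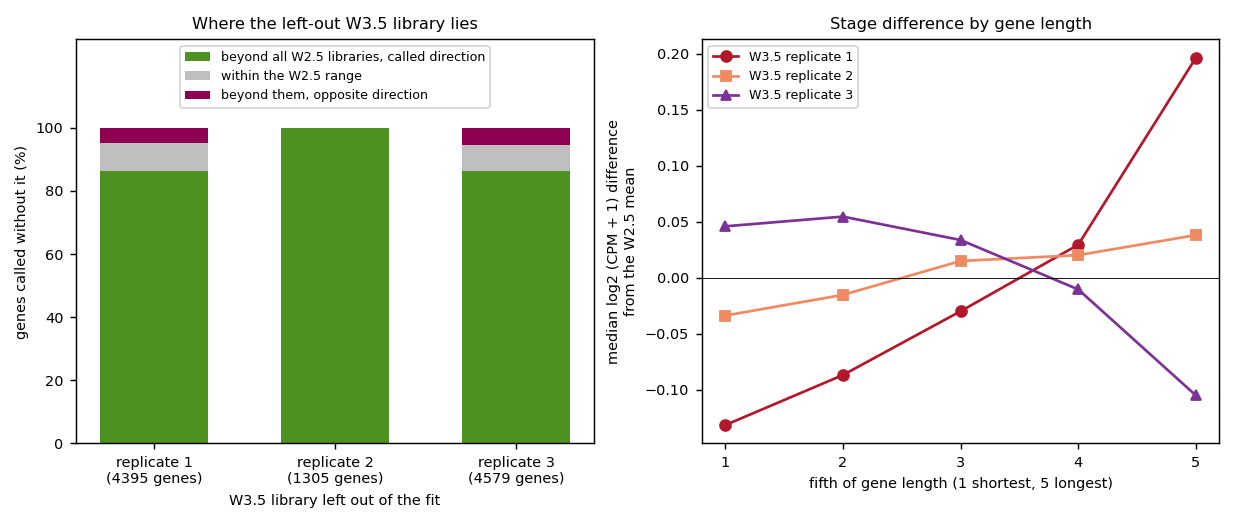
Left, for each W3.5 library, the percentage of the genes called without it in which it lay beyond all W2.5 libraries in the called direction (green), within their range (grey) or beyond them the other way (purple). Right, the median log2(CPM + 1) difference of each W3.5 library from the W2.5 mean by quintile of gene length; replicate 1 runs upward to 0.20 and replicate 3 downward to −0.11 in the longest genes.

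HvMADS1 (HORVU4Hr1G067680), the mutated gene, gave no uniform picture at W3.5. Its level was 0, 0.334 and 13.5 CPM in W3.5 replicates 1, 2 and 3, against 8.64, 13.6 and 9.28 CPM in the W2.5 libraries. Replicates 1 and 2 lay below every W2.5 library and replicate 3 within their range, so the groups overlapped. The means were 4.60 ± 7.68 CPM at W3.5 and 10.5 ± 2.67 CPM at W2.5 (SD, n = 3 each). The edgeR log2 fold change was −1.21 (SE 1.27, adjusted p = 0.54), and it was −5.81 (adjusted p = 0.00064) without W3.5 replicate 3. A library with no read allows up to 0.204 CPM, at 3 counts, and this limit covers counting error only.

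In the other groups HvMADS1 transcript was higher at W3.5, also in the mutant. On the scale of all 24 libraries it averaged 46.0 ± 3.90 CPM at W3.5 and 17.5 ± 4.96 CPM at W2.5 in mads1 at LT. In WT spikes at HT it averaged 62.1 ± 2.82 CPM at W3.5 and 8.51 ± 1.88 CPM at W2.5, and in WT spikes at LT 59.5 ± 3.67 CPM at W3.5 and 40.8 ± 3.62 CPM at W2.5 (SD, n = 3 each). Every mads1 library was below every WT library at HT W3.5, LT W3.5 and LT W2.5, while at HT W2.5 the genotypes overlapped. Transcript was counted in all mads1 libraries but 1, so its presence alone does not mark the genotype. W3.5 replicates 1 and 2 of the warm mutant were below every other library of these groups.

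Of the 13 MADS-box genes, 12 were called higher at W3.5 and none lower, where 10.4% of all tested genes were called higher. The list's median log2 fold change was 1.5, against 0.02 over all tested genes. The list holds only genes found expressed in earlier work, so genes expressed at W3.5 but hardly at W2.5 could enter it. The count and the median therefore describe the listed genes and are no test of the family, here and in the other groups below. The same 12 were called with W3.5 replicate 3 left out, when HvMADS1 was called lower, and with the length correction. In 9 of them each W3.5 library was at least 2-fold above the W2.5 mean, and 10 were called in every fit without 1 library. Replicate 3 was the lowest of the W3.5 libraries in 8 of the 12 and the highest in the other 4.

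**Figure D3:**
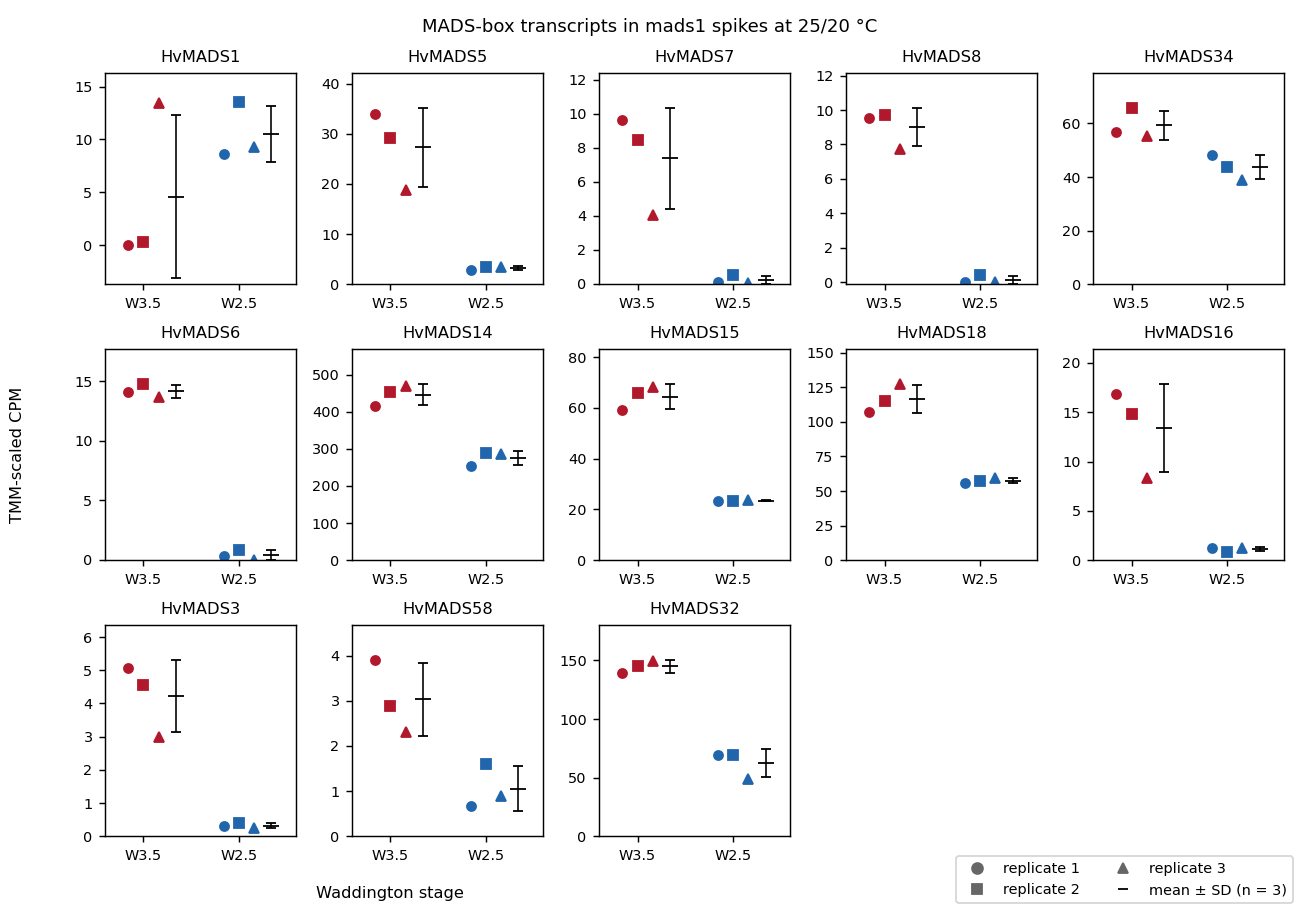
TMM-scaled CPM of the 13 MADS-box genes in the 3 W3.5 libraries (red) and the 3 W2.5 libraries (blue) of warm mads1 spikes, with symbols for the replicates and bars for mean ± SD. Apart from HvMADS1, whose W3.5 libraries span 0 to 13.5 CPM, the W3.5 points lie above all W2.5 points.

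Among the other SEPALLATA genes, HvMADS5, HvMADS7 and HvMADS8 were nearly silent or low at W2.5 and higher in every W3.5 library. HvMADS5 (HORVU7Hr1G025700) had 33.9, 29.3 and 18.7 CPM in the W3.5 libraries, against 2.88, 3.5 and 3.37 CPM in the W2.5 libraries. Replicate 3 was the lowest at W3.5 yet well above each W2.5 library, and the groups were far apart. Its log2 fold change was 3.07 (SE 0.24, edgeR adjusted p = 0.0012).

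HvMADS7 (HORVU7Hr1G054220) and HvMADS8 (HORVU5Hr1G076400) are orthologues of rice genes that act in the inner floral organs and floral meristem. HvMADS7 had 9.63, 8.45 and 4.05 CPM at W3.5, against 0.123, 0.517 and 0.0636 CPM at W2.5. HvMADS8 had 9.57, 9.73 and 7.75 CPM at W3.5, against 0, 0.402 and 0 CPM at W2.5. Replicate 3 was again the lowest W3.5 library for both, and no group overlapped. The log2 fold changes were 4.90 for HvMADS7 (SE 0.62, edgeR adjusted p = 0.0039) and 5.93 for HvMADS8 (SE 0.71, edgeR adjusted p = 0.0034). Both rest on few W2.5 reads, 12 and 7 in all: without W2.5 replicate 2 the fitted values were 6.19 and 10.16.

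HvMADS34 (HORVU5Hr1G095710), whose rice orthologue acts in inflorescence and spikelet meristems, was already expressed at W2.5. It had 56.8, 65.6 and 55.3 CPM at W3.5, against 48.2, 43.7 and 39.0 CPM at W2.5. The groups did not overlap, but the highest W2.5 library came close to the lowest at W3.5. The change was called, at 0.44 log2 units (SE 0.11, edgeR adjusted p = 0.029). The call was lost without W3.5 replicate 2 (adjusted p = 0.11), W2.5 replicate 2 (0.10) or W2.5 replicate 3 (0.11).

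HvMADS6 (HORVU6Hr1G066140) belongs to the AGL6 group, which in rice acts in floral meristem and organ identity. It had 14.1, 14.7 and 13.7 CPM at W3.5, against 0.306, 0.804 and 0 CPM at W2.5. The W3.5 libraries were nearly equal, replicate 3 included, with a mean of 14.2 ± 0.537 CPM, against 0.370 ± 0.406 CPM at W2.5 (SD, n = 3 each). The fitted log2 change was 5.19 (SE 0.60, edgeR adjusted p = 0.0032), or 6.44 without W2.5 replicate 2.

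The APETALA1/FRUITFULL genes, which act in floral transition and meristem identity, were expressed at both stages and rose together. HvMADS14 (HORVU5Hr1G095630), the vernalization gene VRN1, had 414, 453 and 469 CPM at W3.5, against 255, 288 and 287 CPM at W2.5. HvMADS15 (HORVU2Hr1G063800) had 59.1, 65.8 and 68.5 CPM at W3.5, against 23.5, 23.4 and 23.6 CPM at W2.5. HvMADS18 (HORVU0Hr1G003020) had 107, 115 and 127 CPM at W3.5, against 56.0, 57.4 and 59.3 CPM at W2.5. All 3 had their highest W3.5 level in replicate 3 and their lowest in replicate 1, and all W3.5 libraries were above all W2.5 libraries. The log2 fold changes were 0.69 (SE 0.08), 1.45 (SE 0.08) and 1.01 (SE 0.08) for HvMADS14, HvMADS15 and HvMADS18, with edgeR adjusted p-values of 0.0032, 0.00083 and 0.0012.

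HvMADS16 (HORVU7Hr1G091210), the APETALA3-type gene for lodicule and stamen identity in grasses, had 16.9, 14.8 and 8.37 CPM at W3.5, against 1.29, 0.862 and 1.21 CPM at W2.5. Replicate 3 stood lowest at W3.5 but far above each W2.5 library. This gave a log2 change of 3.58 (SE 0.32, edgeR adjusted p = 0.0016).

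The AGAMOUS-type genes HvMADS3 (HORVU3Hr1G026650) and HvMADS58 (HORVU1Hr1G029220), which in rice specify stamens and end the growth of the floral meristem, remained low at W3.5. HvMADS3 had 5.08, 4.56 and 3.00 CPM at W3.5, against 0.306, 0.402 and 0.254 CPM at W2.5. HvMADS58 had 3.89, 2.89 and 2.30 CPM at W3.5, against 0.674, 1.61 and 0.890 CPM at W2.5. Both pairs of groups were separate, HvMADS58 by a narrow gap, and replicate 3 was lowest for both at W3.5. The log2 fold changes were 3.68 for HvMADS3 (SE 0.32, edgeR adjusted p = 0.0015) and 1.5 for HvMADS58 (SE 0.37, edgeR adjusted p = 0.030). For HvMADS58 the call was lost without W3.5 replicate 1 (adjusted p = 0.057) or 2 (0.095), or W2.5 replicate 1 (0.093) or 3 (0.12).

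HvMADS32 (HORVU3Hr1G068900), of a group found in grasses that acts in floral organ identity in rice, had 139, 145 and 150 CPM at W3.5, against 68.9, 69.5 and 49.1 CPM at W2.5. Every W3.5 library was over 2-fold above the W2.5 mean, and the log2 fold change was 1.21 (SE 0.14, edgeR adjusted p = 0.0029).

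Levels of different genes can be compared per length, in the deposited FPKM. By mean FPKM at W3.5, HvMADS14 was the highest of the 13 at 521 ± 16.3 FPKM, followed by HvMADS32 at 165 ± 1.92 FPKM (SD, n = 3 each). HvMADS15 at 82.9 ± 3.5 FPKM and HvMADS18 at 82.9 ± 3.79 FPKM did not differ beyond their spread. HvMADS34 followed at 49.1 ± 5.5 FPKM and HvMADS5 at 31.8 ± 10.2 FPKM. At the low end stood HvMADS3 with 5.37 ± 1.57 FPKM and HvMADS58 with 3.52 ± 1.07 FPKM, within their spread of each other and of HvMADS1 with 4.37 ± 7.28 FPKM.

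The row-type genes set the fate of the lateral spikelets, whose fertility parts the row types of barley. Of the 4 measured, 3 were called higher at W3.5, none lower, and 1 of them, INT-C, was called in every fit without 1 library. Over all tested genes 10.4% were called higher, and the list's median log2 fold change was 0.96, against 0.02 over all tested genes. The count was the same with W3.5 replicate 3 left out.

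VRS1 (HORVU2Hr1G092290), a homeodomain-leucine zipper repressor of lateral spikelet growth, had 6.86, 7.29 and 4.26 CPM at W3.5, against 3.00, 2.36 and 2.42 CPM at W2.5. Replicate 3 lay between the other W3.5 libraries and the W2.5 libraries. Over all libraries the log2 fold change was 1.24 (SE 0.25, edgeR adjusted p = 0.015). The call was lost without W3.5 replicate 2 (adjusted p = 0.070) or W2.5 replicate 2 (0.070) or 3 (0.077).

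VRS2 (HORVU5Hr1G081450), of the SHORT INTERNODES family, had 41.4, 54.4 and 68.0 CPM at W3.5, against 30.5, 30.6 and 21.8 CPM at W2.5, with replicate 3 the highest. It rose by 0.98 log2 units (SE 0.21, edgeR adjusted p = 0.019). The call was lost without W3.5 replicate 2 (adjusted p = 0.074) or W2.5 replicate 1 (0.058), 2 (0.059) or 3 (0.076).

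INT-C (HORVU4Hr1G007040), the orthologue of maize TEOSINTE BRANCHED1, had 6.0, 7.29 and 7.54 CPM at W3.5, against 3.62, 3.73 and 3.5 CPM at W2.5, with no overlap. Its log2 fold change was 0.94 (SE 0.15, edgeR adjusted p = 0.0082). VRS4 (HORVU3Hr1G016690), the orthologue of maize RAMOSA2, had 30.0, 35.0 and 34.8 CPM at W3.5, against 34.0, 29.3 and 25.4 CPM at W2.5. The groups overlapped, and the log2 change of 0.17 (SE 0.13, edgeR adjusted p = 0.38) was not called.

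**Figure D4:**
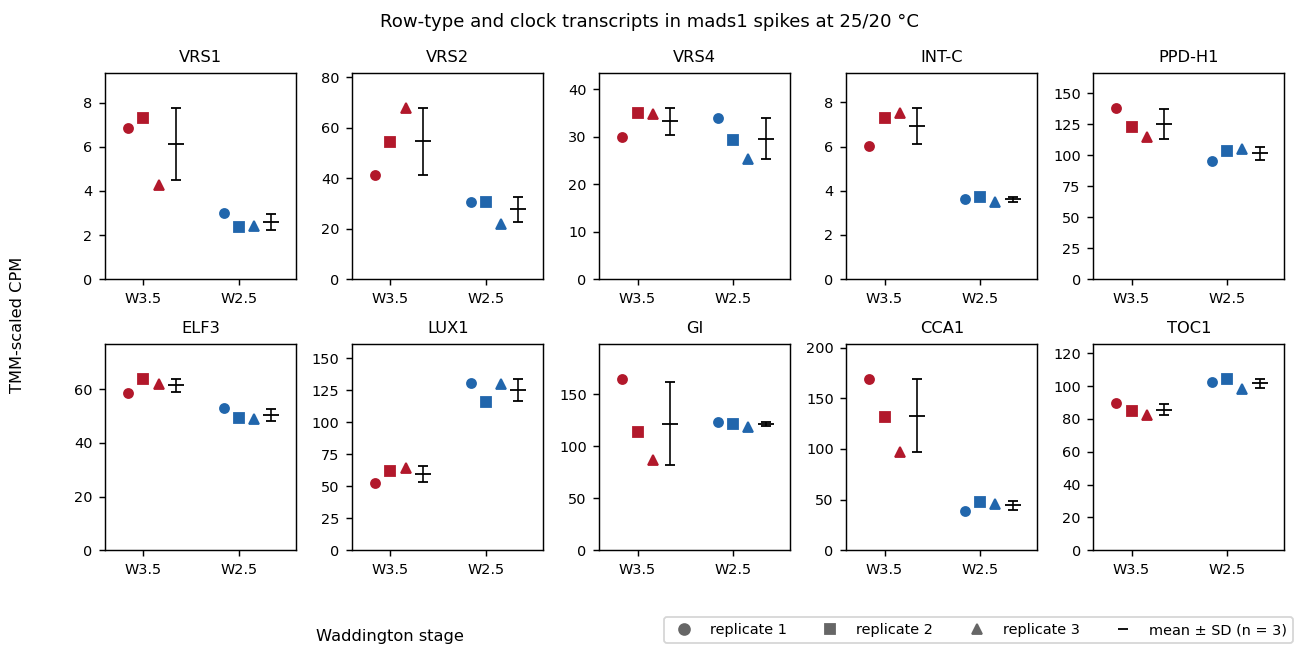
TMM-scaled CPM of 4 row-type genes (VRS1, VRS2, VRS4, INT-C) and 6 clock genes in the 3 W3.5 libraries (red) and the 3 W2.5 libraries (blue) of warm mads1 spikes, with mean ± SD bars. LUX1 and TOC1 lie lower at W3.5, CCA1 higher, and VRS4 and GI overlap.

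Clock genes are expressed in daily cycles, and the labels do not give the hour of sampling, so stage and hour cannot be told apart in these values. Of the 6 measured, 3 were called higher at W3.5 and 2 lower, where 10.4% and 9.99% of all tested genes were, and the list's median log2 fold change was 0.14; only CCA1 and LUX1 were called in every fit without 1 library. The counts were the same with W3.5 replicate 3 left out. With the length correction they were 1 higher and 2 lower.

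LUX1 (HORVU3Hr1G114970), a member of the evening complex, had 52.6, 62.2 and 64.2 CPM at W3.5, against 131, 116 and 130 CPM at W2.5. The W3.5 libraries were alike and all far below the W2.5 libraries, a log2 change of −1.07 (SE 0.10, edgeR adjusted p = 0.0016). CCA1 (HORVU7Hr1G070870), a morning-phased MYB factor, had 169, 131 and 97.3 CPM at W3.5, against 38.9, 47.6 and 46.0 CPM at W2.5. Every W3.5 library was over 2-fold above the W2.5 mean, and the log2 fold change was 1.59 (SE 0.20, edgeR adjusted p = 0.0038).

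TOC1 (HORVU6Hr1G057630), an evening-phased pseudo-response regulator, had 89.6, 85.0 and 82.5 CPM at W3.5, against 102, 104 and 98.3 CPM at W2.5. ELF3 (HORVU1Hr1G094980), also of the evening complex, had 58.7, 63.7 and 61.9 CPM at W3.5, against 53.1, 49.5 and 49.0 CPM at W2.5. PPD-H1 (HORVU2Hr1G013400), the photoperiod-response regulator, had 139, 123 and 115 CPM at W3.5, against 95.5, 104 and 105 CPM at W2.5. These groups were separate but close. The log2 fold changes were −0.24 for TOC1 (SE 0.06, adjusted p = 0.036), 0.28 for ELF3 (SE 0.07, adjusted p = 0.033) and 0.30 for PPD-H1 (SE 0.09, adjusted p = 0.048), all by edgeR.

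These 3 calls were lost easily. TOC1 lost its call without W3.5 replicate 2 (edgeR adjusted p = 0.12) or W2.5 replicate 1, 2 or 3 (0.10 to 0.14), and ELF3 without the same libraries (0.074 to 0.14). PPD-H1 kept its call only without W3.5 replicate 3 (0.016), with 0.060 to 0.17 in the other such fits. With the length correction ELF3 (0.098) and PPD-H1 (0.055) were not called.

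GI (HORVU3Hr1G021140), which acts between the clock and flowering, had 165, 114 and 86.5 CPM at W3.5, against 123, 122 and 119 CPM at W2.5. Replicate 1 lay above and replicates 2 and 3 below all W2.5 libraries. The log2 fold change was 0.01 (SE 0.21, edgeR adjusted p = 0.98), and its sign turned in several other fits. PPD-H1, ELF3, CCA1 and GI, at 2589 to 2882 bp, fall in the longest quintile of genes. The W3.5 levels of PPD-H1, CCA1 and GI stood in the same order, replicate 1, 2, 3, as the medians of that quintile, and those of ELF3 did not, with replicate 1 the lowest. Beyond the fits with the length correction, the part of length in these values was not tested.

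Of identifiers without a name, the 2 that rose and the 2 that fell most were taken by a rule on level, separation and leave-one-out calls. HORVU7Hr1G062070 had 14.8, 10.2 and 8.79 CPM at W3.5 and no read in any W2.5 library, at least 185-fold higher against a floor of 3 counts over the W2.5 group. It had no read in any of the other 18 libraries of the study either. HORVU7Hr1G007520 had 7.39, 4.12 and 4.19 CPM at W3.5, against 0.0613, 0 and 0 CPM at W2.5, where a single read was counted. The ratio of the summed levels was 256 (95% Poisson interval 45.6 to 10163, counting error only; edgeR adjusted p = 0.0014). In mads1 at LT the same identifier averaged 15.3 ± 3.26 CPM at W3.5 and 11.8 ± 1.47 CPM at W2.5 (SD, n = 3 each).

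HORVU3Hr1G065060 had 0, 0.278 and 0.0698 CPM at W3.5, against 7.66, 10.6 and 10.9 CPM at W2.5 (log2 fold change −6.20, SE 0.54, edgeR adjusted p = 0.0015, or −7.87 without W3.5 replicate 2). In mads1 at LT it averaged 55.1 ± 2.49 CPM at W3.5 and 41.4 ± 7.46 CPM at W2.5 (SD, n = 3 each). HORVU3Hr1G003960 had 0.264, 0.445 and 1.12 CPM at W3.5, against 5.76, 5.40 and 7.25 CPM at W2.5 (log2 fold change −3.34, SE 0.43, edgeR adjusted p = 0.0041, or −4.06 without W3.5 replicate 3). That all 3 W3.5 libraries lay apart from the W2.5 libraries for all 4 identifiers was required by the rule.

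HvMADS1 was 1 of a group of identifiers that were far higher in W3.5 replicate 3 than in the other W3.5 libraries. By a rule chosen after the data were seen, 96 identifiers, HvMADS1 included, had at least 5 CPM in replicate 3 and at least 10-fold the level of both other W3.5 libraries. Their median level was 0.0660, 0.751 and 19.2 CPM in W3.5 replicates 1, 2 and 3, against 2.76, 0.115 and 0.127 CPM in W2.5 replicates 1, 2 and 3. In the other 18 libraries the median ran from 0.0512 to 0.291 CPM. HvMADS1 met the rule but did not share these low levels. It had 8.64, 13.6 and 9.28 CPM at W2.5, and group means from 8.51 to 62.1 CPM in the other 18 libraries. W2.5 replicate 1 was more than 2-fold above the other W2.5 libraries in 81 of the 96, and W3.5 replicate 2 above replicate 1 in 80. Over all identifiers at 5 CPM or more, W2.5 replicate 1 was so raised in 140 of 13135. Those identifiers were not matched to the low W2.5 levels of the 96, so the 2 counts are not like for like. For the count of 80 no share over all identifiers was taken. Together the 96 took 0.427% of the reads of W3.5 replicate 3 and 0.102% of those of W2.5 replicate 1.

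Of these 96 identifiers 55 passed the filter and 1 was called, HORVU1Hr1G082090. It had 0.264, 0 and 6.84 CPM at W3.5, against 32.5, 32.6 and 29.9 CPM at W2.5, and so was lower in all 3 W3.5 libraries. By the rule for replicate 3, the identifiers highest there were HORVU3Hr1G065640, with 0.0660, 3.23 and 145 CPM at W3.5, against 13.8, 0.804 and 1.08 CPM at W2.5, and HORVU4Hr1G083820. HORVU4Hr1G083820 had 0.0660, 0.723 and 90.2 CPM at W3.5, against 4.78, 0.0574 and 0.0636 CPM at W2.5. Those lowest there were HORVU6Hr1G047560, with 35.6, 8.73 and 1.74 CPM at W3.5, against 7.66, 7.99 and 6.42 CPM at W2.5, and HORVU1Hr1G000440, with 7.32, 7.29 and 0.279 CPM at W3.5, against 8.40, 0.517 and 0.509 CPM at W2.5. None of these 4 was called, since their W3.5 libraries spread across the W2.5 range or beyond.

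The stage change was set beside that of mads1 spikes at LT, to see how far it depended on temperature. At LT 746 genes were called (4.35% of 17169 tested), 464 higher and 282 lower at W3.5 (1.64%). Called in both and in the same direction were 272 genes, 7.74% of the 3512 at HT and 36.5% of the 746 at LT, and 38 were called in opposite directions. The difference of the stage changes, HT minus LT, was called in 1879 genes (10.5% of 17899), 791 higher (4.42%) and 1088 lower (6.08%). That count ran to 1068 without HT W3.5 replicate 2, 1241, 1196 and 942 without HT W2.5 replicate 1, 2 and 3, 1127 without LT W2.5 replicate 3, and 909 without LT W3.5 replicate 2, and it was 1967 without HT W3.5 replicate 3. With all 24 libraries in the fit 276 genes were called, 138 higher and 138 lower.

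Of the 13 MADS-box genes 12 were called higher at W3.5 at LT (2.7% of all tested genes), HvMADS34 being the exception with a log2 fold change of 0.14 (edgeR adjusted p = 0.55). The difference HT minus LT was called for 4 of the 13. For HvMADS1 it was −2.63 (SE 1.21, edgeR adjusted p = 0.19) and not called. Without HT W3.5 replicate 3 the HvMADS1 difference was −7.20 (edgeR adjusted p = 4.7e-05), so its call turned on that library. The AGAMOUS-type genes changed less at HT. HvMADS3 had a difference of −2.92 log2 units (SE 0.60, edgeR adjusted p = 0.011), from fitted changes of 3.68 at HT and 6.59 at LT. At LT W2.5 HvMADS3 averaged 0.0987 ± 0.0690 CPM (SD, n = 3), with at most 3 reads in a library, so its LT change rests on few reads. HvMADS58 had −2.73 (SE 0.48, edgeR adjusted p = 0.0059), from 1.5 at HT and 4.22 at LT. Without HT W3.5 replicate 3 the differences were −2.73 and −2.57, both called.

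HvMADS58 averaged 8.24 ± 2.02 CPM at W3.5 and 0.433 ± 0.0678 CPM at W2.5 in mads1 at LT (SD, n = 3 each), so both its higher level at W2.5 and its lower level at W3.5 in warm spikes went into that difference. HvMADS5 changed more at HT, by 1.1 log2 units (SE 0.32, edgeR adjusted p = 0.046). Its LT levels averaged 48.2 ± 10.0 CPM at W3.5 and 12.4 ± 1.98 CPM at W2.5. HvMADS7 had 21.0 ± 5.36 CPM at W3.5 and no read at W2.5 at LT, at least 352-fold higher; the fitted difference of −6.55 (SE 1.67, edgeR adjusted p = 0.035) depends on the value set for no read. It rests on 12 reads at HT W2.5 and none at LT W2.5.

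Among the row-type genes, VRS2 had a difference of 1.1 (SE 0.25, edgeR adjusted p = 0.018), with a stage change of −0.13 at LT, and VRS4 of 0.96 (SE 0.19, edgeR adjusted p = 0.0090). VRS4 fell at LT, with 19.7 ± 2.55 CPM at W3.5 and 34.1 ± 3.51 CPM at W2.5 (SD, n = 3 each; log2 fold change −0.79, edgeR adjusted p = 0.0069). Of the clock genes LUX1 had a difference of 2.54 (SE 0.20, edgeR adjusted p = 0.00017). It fell at LT as well, to 8.45 ± 2.17 CPM at W3.5 against 104 ± 4.25 CPM at W2.5, a log2 fold change of −3.61. These 3 differences were 0.91, 0.92 and 2.48 without HT W3.5 replicate 3, all called. VRS1 had a difference of 0.93 (SE 0.29, edgeR adjusted p = 0.062), called only without that library, at 1.13 (edgeR adjusted p = 0.012). For LUX1, temperature and hour of sampling cannot be told apart either.

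WT spikes at HT gave the comparison by genotype. One of their libraries, W2.5 replicate 3, stood apart, with a TMM factor of 0.601 over all 24 libraries and a count-weighted gene length of 1387 bp, against 1636 to 1829 bp in the other 23. With it, edgeR called 0 of 17093 genes between stages in WT (1661 had an unadjusted p under 0.05, and DESeq2 called 532). Without it 5329 of 17440 were called (30.6%), 2599 higher and 2730 lower at W3.5. Of these, 1532 were called in the same direction in warm mads1, 43.6% of its 3512 genes and 28.7% of the 5329, and 69 in the opposite direction.

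The difference of the stage changes, mads1 minus WT at HT, was called in 13 genes with that library (0.0731% of 17780; 11 or 0.0619% higher; 336 by DESeq2). Without it 504 were called (2.78% of 18118), 325 higher (1.79%) and 179 lower (0.988%). With it kept, leaving out any 1 of the other libraries gave 1 to 10 calls. No MADS-box, row-type or clock gene was called with it. The values that follow leave it out, and both differences share the 6 warm mads1 libraries.

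Without that library 12 of the 13 MADS-box genes were called higher at W3.5 in WT at HT (14.9% of all tested genes), all but HvMADS14. The difference was called for HvMADS3, at −4.16 log2 units (SE 0.73, edgeR adjusted p = 0.018), and HvMADS58, at −2.68 (SE 0.54, edgeR adjusted p = 0.030). In WT the stage changes were 7.82 and 4.17. In the WT W2.5 libraries kept, HvMADS3 had 0.0582 and 0 CPM, so the size of its WT change and of its difference rests on very few reads. HvMADS1 itself had a difference of −4.15 (SE 1.33, edgeR adjusted p = 0.12), not called, and HvMADS14 one of 0.48 (SE 0.11, edgeR adjusted p = 0.052). With the library kept, HvMADS3 and HvMADS58 had −2.64 (adjusted p = 0.40) and −1.35 (adjusted p = 0.51).

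Of the clock genes 3 had a called difference without that library, where 2.78% of all tested genes did. For these genes genotype and hour of sampling cannot be told apart either. LUX1 had a difference of −3.15 (SE 0.23, edgeR adjusted p = 0.00014), from changes of −1.07 in mads1 and 2.08 in WT. Its W2.5 levels already differed at HT. On the scale of all 24 libraries they were 3.38 and 5.12 CPM in the WT libraries kept, against 130, 115 and 129 CPM in mads1. CCA1 had 1.63 (SE 0.24, edgeR adjusted p = 0.0078), with a WT change of −0.05, and TOC1 −0.95 (SE 0.10, edgeR adjusted p = 0.0012), with a WT change of 0.70. The 3 remaining clock genes and the 4 row-type genes were not called; VRS1, at −1.43 (SE 0.35, edgeR adjusted p = 0.055), came nearest.

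**Figure D5:**
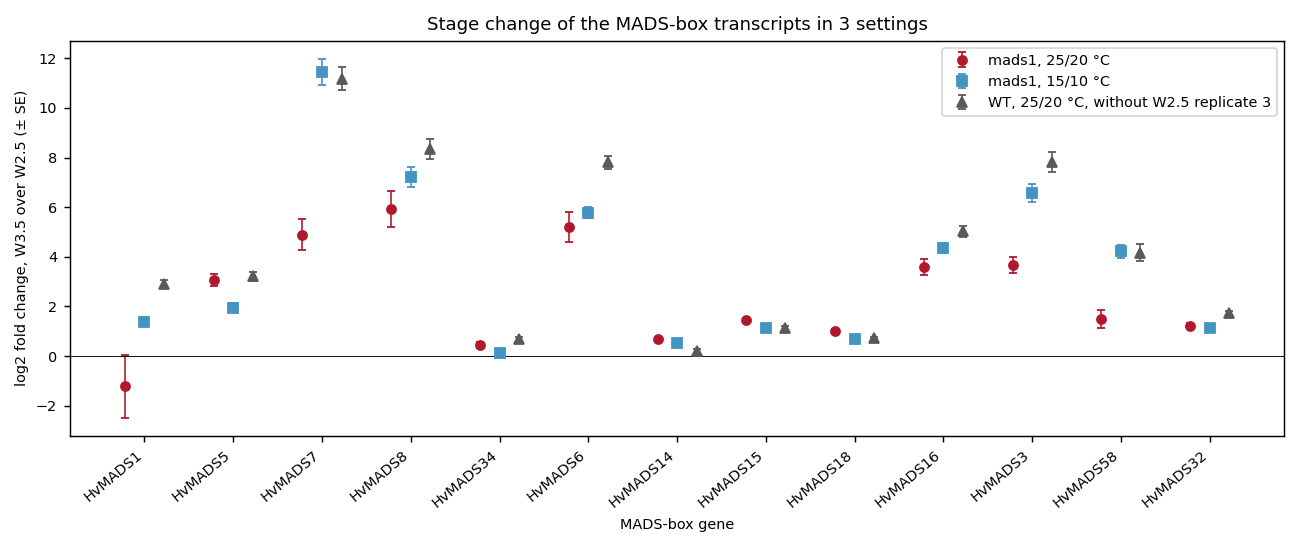
Log2 fold change of W3.5 over W2.5, with SE bars, for the 13 MADS-box genes in warm mads1 (red), cool mads1 (blue) and warm WT without W2.5 replicate 3 (grey). HvMADS3 and HvMADS58 lie lower in warm mads1 than in the other settings. The points of HvMADS7 outside warm mads1 depend on the value set for no read at W2.5. Those of HvMADS3 outside warm mads1 rest on few W2.5 reads.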

How the data were processed

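Libraries were prepared from pooled-spike total RNA with the TruSeq RNA kit v2, per the labels' protocols. HISAT2 and HTSeq were used, per the submitters' processing notes; neither their versions nor the build, annotation and strand setting is given in the sources used here. Reads of overlapping genes, antisense genes and near-identical copies therefore cannot be assigned with certainty. The deposited count table holds the authors' whole read counts per identifier. FPKM in the authors' second deposited table equal these counts over a fixed gene length and the library total, to a relative 9.9e-08, so they are no independent measurement. They served only for levels between genes and for limma.

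Counts of the 6 libraries were filtered with filterByExpr, scaled with TMM and tested with edgeR 4.0.16 in R 4.3.3 (quasi-likelihood F test, Benjamini-Hochberg over 17211 genes, calls at 0.05); 14862 identifiers had no read in the 6. SE is |log2 fold change| divided by the root of the F statistic. The 6 libraries alone were fitted, so that the spread comes from the libraries compared; fits of all 24 libraries, and of all but WT_HT_W2.5 replicate 3, which stood apart, were alternatives. Differences of stage changes were fitted on the 12 mads1 and the 12 HT libraries. P-values measure the spread between these pooled samples. Pairs of replicates differed by 3.25 to 40.4 times sampling noise, so none was taken as a duplicate. Scripts were tested on simulated data.

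The comparison, the gene lists (13 MADS-box, 4 row-type, 6 clock identifiers found expressed in earlier work; HvMADS2, HvMADS4, HvMADS13 and HvMADS21 were not analysed here) and the tests were chosen with earlier results of these data known. All list members are named. Unnamed identifiers were the 2 that rose and 2 that fell most among called genes with a mean of 5 CPM or more in the higher group, no overlap and a call in all 6 leave-one-out fits. The 2 highest and 2 lowest in W3.5 replicate 3 against replicates 1 and 2, by log2(CPM + 1), were named too. Alternatives were RLE scaling, no filter, DESeq2 1.42.0, other sets of libraries, a replicate block, limma 3.58.1 on log2(FPKM + 1) and log2(FPKM + 0.1), leaving out each library, and, added after the data were seen, per-library length offsets (loess, span 0.5) and leaving out W3.5 replicate 3 with W2.5 replicate 1. None of the 39734 identifiers matched the RefSeq table, so no sequence is shown.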

Additional observations from a re-analysis of the deposited data

Results flagged for a closer look

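In mads1 the stage change at HT differed from that at LT, by the edgeR test of the difference itself, for 7 listed genes and 2 unnamed identifiers. The differences, HT minus LT in log2 units, were −2.92 for HvMADS3, −2.73 for HvMADS58, −6.55 for HvMADS7 and 1.1 for HvMADS5. HvMADS7 had no read at LT W2.5, so its fitted value depends on the value set for no read. HvMADS3 had at most 3 reads in a library at LT W2.5. The differences were 1.1 for VRS2, 0.957 for VRS4 and 2.54 for LUX1. HORVU7Hr1G007520, with 1 read in all at HT W2.5, had 7.18 (adjusted p = 0.00033), and HORVU3Hr1G065060 had −6.60 (adjusted p = 5.03e-05). These 2 identifiers had been chosen for their large stage change in the same HT libraries. Their tests of the difference are therefore not independent of that choice and give no support. Both identifiers were expressed at both stages at LT, and WT libraries at HT held at most 3 reads of either.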

How the results depend on the processing

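The 3512 called genes became 1441 with all 24 libraries in the fit, 5462 with all but WT_HT_W2.5 replicate 3 and 1589 with a replicate block; leaving out 1 library gave 1095 to 4579. Calls separated in all 3 W3.5 libraries were 1375 with all 24. RLE scaling, no filter, DESeq2, limma, length offsets and leaving out W3.5 replicate 3 with W2.5 replicate 1 kept the count within 1.5 times (3117 to 4150). The difference HT minus LT (1879) became 276 with all 24 libraries, with 909 to 2507 when 1 library was left out. The difference mads1 minus WT (13) became 336 with DESeq2, 346 with all 24 libraries and 1 with the block, with 1 to 504 when 1 library was left out. The cause of these shifts was not tested.

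With all 24 libraries 10 MADS-box genes were called (HvMADS34 and HvMADS58 lost), 1 row-type gene and 1 clock gene, LUX1 missing narrowly (adjusted p = 0.058). GI turned sign, to −0.00093 without WT_HT_W2.5 replicate 3 in the fit of the rest, −0.0427 with the block, −0.0628 and −0.0654 with limma (pseudocounts 1 and 0.1) and −0.0832 with length offsets. With 1 library left out it ran from −0.27 (W3.5 replicate 1) to 0.20 (W3.5 replicate 3), and was −0.0078 without W2.5 replicate 3. Of the values of single named genes under all settings, 390 kept direction and call, 59 lost the call, 2 gained it and these 7 turned. Same-numbered libraries did not deviate together (r = −0.46, 0.16 and −0.38 across genes for numbers 1, 2 and 3), so numbers were not taken as pairs; under the replicate block 10 MADS-box, 2 row-type and 2 clock genes were called. Leaving 2 libraries in a group assumes that they vary like the others. A count of 3 stood at 0.167 to 0.204 CPM per library, which limits statements on genes near 0.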

Other observations

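A pattern like that of HvMADS1 was looked for after the values were seen: at least 1 CPM on library totals, without TMM, in every W2.5 library and at most 1 read in each of W3.5 replicates 1 and 2. HvMADS1 itself had more reads in replicate 2 and did not meet this rule, and 4 other identifiers did. No WT library held more than 1 read of any of these 4, whereas HvMADS1 was expressed in every WT library. In mads1 at LT HORVU6Hr1G050370 had no read, and the others were expressed at both stages. HORVU6Hr1G050370 had 0.0660, 0 and 11.9 CPM at W3.5, against 46.6, 48.7 and 46.0 CPM at W2.5. HORVU2Hr1G061570 had 0, 0 and 4.33 CPM at W3.5, against 4.35, 6.32 and 4.96 CPM at W2.5. In both, as for HvMADS1, replicate 3 was far above the other W3.5 libraries.

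HORVU6Hr1G057690 had 0, 0.0556 and 0.558 CPM at W3.5, against 4.35, 3.73 and 5.02 CPM at W2.5. HORVU1Hr1G039430 had 0, 0 and 0.0698 CPM at W3.5, against 3.06, 4.48 and 3.88 CPM at W2.5. These 2 stayed low in replicate 3 too and were called by edgeR (adjusted p = 0.0080 and 0.0012), while the first 2 were not (0.080 and 0.32).

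The opposite pattern, at least 1 CPM on library totals in W3.5 replicates 1 and 2 and at most 1 read in each W2.5 library, was met by 17 identifiers. Replicate 3 had at least 1 CPM on library totals in 10 of them. In 14 no WT library held more than 1 read, and in 10 none of the other 18 libraries of the study did. No share over other identifiers at like levels was taken, so these counts only describe the 17.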
